A study of Mus musculus with 11 samples.

Results

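The 10 genes described here are Pecam1, Cdh5, Kdr, Flt1, Tek, Tie1, Emcn, Egfl7, Esam and Cd93, which are widely used to mark the endothelial cells that line blood vessels. They were listed by name, with earlier results of these data known, and make up 10 of the 18305 genes in the count table. All 10 were read out in 27 bulk RNA libraries of 8 groups. The question was how the vessel genes of grafted tumors compared with those of normal oviduct and ovarian surface epithelium (OSE) tissue, with organoids, which are grown from epithelial cells outside the body, as the negative control.

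Oviduct tissue (3 libraries), bulk OSE tissue (3), oviductal organoids (3) and OSE organoids (2) came from young adult female C57BL/6 mice, with organoid lines set up from pooled animals. Cas9-GFP oviductal organoids (3) came from mice in which the ROSA26 locus drives Cas9 and EGFP from the ubiquitous CAG promoter, and they received no guides. Each of the oviduct-TBP clones (3) was grown from such cells after tumor suppressor genes had been targeted with CRISPR guides and Nutlin-3a had been used for selection, so that every clone, and every tumor grown from it, also carries Cas9 and EGFP. TBP tumors (6) grew under the skin of NSG mice, a NOD scid gamma strain that lacks mature lymphocytes but still has blood, vessels and myeloid cells. Tumor-derived organoids (4) were the lines T1-mes, T2-epi, T3-mes and T4-epi, kept in Nutlin-3a to hold back host cells. Tumors were injected on both flanks, and the labels do not say which of them shared a mouse. Nothing in the labels ties the tissue replicates to single animals, so that p-values measure the spread between these libraries, part of which may be technical. Host and graft were both mouse, and reads of host vessels and of graft cells could not be told apart.

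Endothelial cells line every blood vessel and seal it with junctions, sense growth factors through receptor tyrosine kinases, and carry a coat of sialomucins and lectin-like proteins towards the blood. Vascular endothelial growth factor (VEGF) acts mainly through the receptor encoded by Kdr, while the product of Flt1 binds VEGF tightly but signals weakly and can act as a decoy. Angiopoietins act through the receptor encoded by Tek, with Tie1 as its co-receptor, and steady the vessel wall. Oviduct is a muscular, well perfused tube, whereas the OSE is a thin epithelial layer on the ovary that has no vessels of its own. Grafted tumors obtain their vessels from the host.

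Positions are whole genes in GRCm38 (GENCODE vM21), and all 10 genes are protein-coding. The junction genes were Pecam1 (chr11:106654217-106750628, minus strand), Cdh5 (chr8:104101625-104144511, plus) and Esam (chr9:37528078-37538319, plus). The receptor genes were Kdr (chr5:75932827-75978458, minus), Flt1 (chr5:147561604-147726011, minus), Tek (chr4:94739289-94874976, plus) and Tie1 (chr4:118471191-118490061, minus). The remaining genes were Emcn (chr3:137341067-137432185, plus), Egfl7 (chr2:26580014-26593120, plus) and Cd93 (chr2:148436640-148443563, minus). Egfl7 overlaps Gm20532 and Mir126a on its own strand, so that part of its reads could come from these transcripts, and its level is uncertain to that extent.

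Promoter sequence from RefSeq (GRCm38.p6) was at hand for 6 of the 10 genes, which have 8 start sites between them. Of these, 4 are shown, read 5′ to 3′ on the gene's strand from 250 to 51 bases before the start. They are the VEGF receptors Flt1 (chr5:147726062-147726261, minus strand) and Kdr (chr5:75978506-75978705, minus strand), of which the first was called higher in the tumors and the second was not called, and Tek (chr4:94739039-94739238, plus strand) and Emcn (chr3:137340828-137341027, plus strand), which had no read in any organoid. Capitals mark AGGAAG on either strand (CTTCCT when read from the other), a form of the element recognised by ETS factors, the family best known for endothelial promoters.
Flt1: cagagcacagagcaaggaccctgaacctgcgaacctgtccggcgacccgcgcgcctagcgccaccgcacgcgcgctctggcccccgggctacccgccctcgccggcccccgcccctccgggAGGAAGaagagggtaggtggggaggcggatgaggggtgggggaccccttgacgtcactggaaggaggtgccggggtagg
Kdr: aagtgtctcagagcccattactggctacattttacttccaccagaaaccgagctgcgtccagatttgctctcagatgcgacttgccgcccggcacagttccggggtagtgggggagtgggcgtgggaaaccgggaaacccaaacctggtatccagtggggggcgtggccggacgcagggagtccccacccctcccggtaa
Tek: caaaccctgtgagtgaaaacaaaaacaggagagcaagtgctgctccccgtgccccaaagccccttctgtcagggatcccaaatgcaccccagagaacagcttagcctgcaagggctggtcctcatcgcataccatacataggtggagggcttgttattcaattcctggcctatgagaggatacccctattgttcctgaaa
Emcn: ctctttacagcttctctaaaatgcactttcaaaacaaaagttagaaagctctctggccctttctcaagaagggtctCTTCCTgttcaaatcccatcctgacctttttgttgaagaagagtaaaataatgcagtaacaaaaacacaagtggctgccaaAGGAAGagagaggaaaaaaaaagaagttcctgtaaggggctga

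These letters occurred in 1 place upstream of Flt1 and in 2 places upstream of Emcn, and in none upstream of Kdr and Tek. Over the 8 start sites, 5 held a match, where 23.9% of all 32851 promoter windows of that length did. Egfl7 has more than 1 of these start sites, and the matching Tie1 window overlaps an exon of Tie1. The 8 windows are therefore not independent promoters, and the 2 shares were not tested against each other. A match describes the sequence, and no binding was measured.

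Levels are in CPM, the count of a gene relative to its library total, with the totals scaled by edgeR's TMM factors. Total counts were 739248 to 1704646 in the tissues, 936348 to 3083507 in the tumors and 600579 to 4531767 in 14 of the 15 organoid libraries. TBP clone 1 had only 82239, so that a count of 0 there allows up to 33.5 CPM (3 reads), against 0.684 to 5.18 CPM in the other 26 libraries. No 2 libraries of a group differed by as little as sampling noise. Tissue labels were set against markers. Ovgp1, the oviductal glycoprotein, was at 72757 to 114196 CPM in oviduct tissue and 65.8 to 118 CPM in OSE tissue. Wt1, a marker of the mesothelium-like surface, did not separate them, with 248 to 257 CPM in OSE and 181 to 271 CPM in oviduct tissue. OSE tissue also held 4913 to 6037 CPM of Hsd3b1, a steroidogenic enzyme of deeper ovarian cells, and so was not surface epithelium alone. Tumor 6 stood apart, with a summed 7033 CPM of erythroid genes where the other tumors had 133 to 357, and the values in which it decides a result are also given without it.

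All 10 endothelial genes were read in every tumor and every tissue library. The tumors did not show a common shift of the set against oviduct tissue. Cd93 and Flt1 rose, Pecam1 fell, and the other genes did not pass the test. Of the 9 genes with enough reads to be tested, 2 were called higher, against a background of 23.7% of all 10827 genes tested, and 1 lower, against 22.4% (edgeR, adjusted p under 0.05). Tek had too few reads. The median log2 fold change of the 9 was -0.17, and over all genes 0.08. Against OSE tissue, Cd93 and Flt1 were again the genes that rose. They were 2 of the 9 tested, against 26.2% of all 10800 genes called higher, and none was called lower, against 24.3%. Here the median was 0.19, beside 0.07 over all genes. Library totals without TMM moved the medians over all genes to 0.40 and 0.02. The calls over all genes against oviduct tissue then split into 3679 higher and 1778 lower, beside 2561 and 2425 with TMM. The same 6 tumors enter both comparisons. With bulk RNA, fewer endothelial cells and less RNA per cell cannot be told apart.

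**Figure D1:**
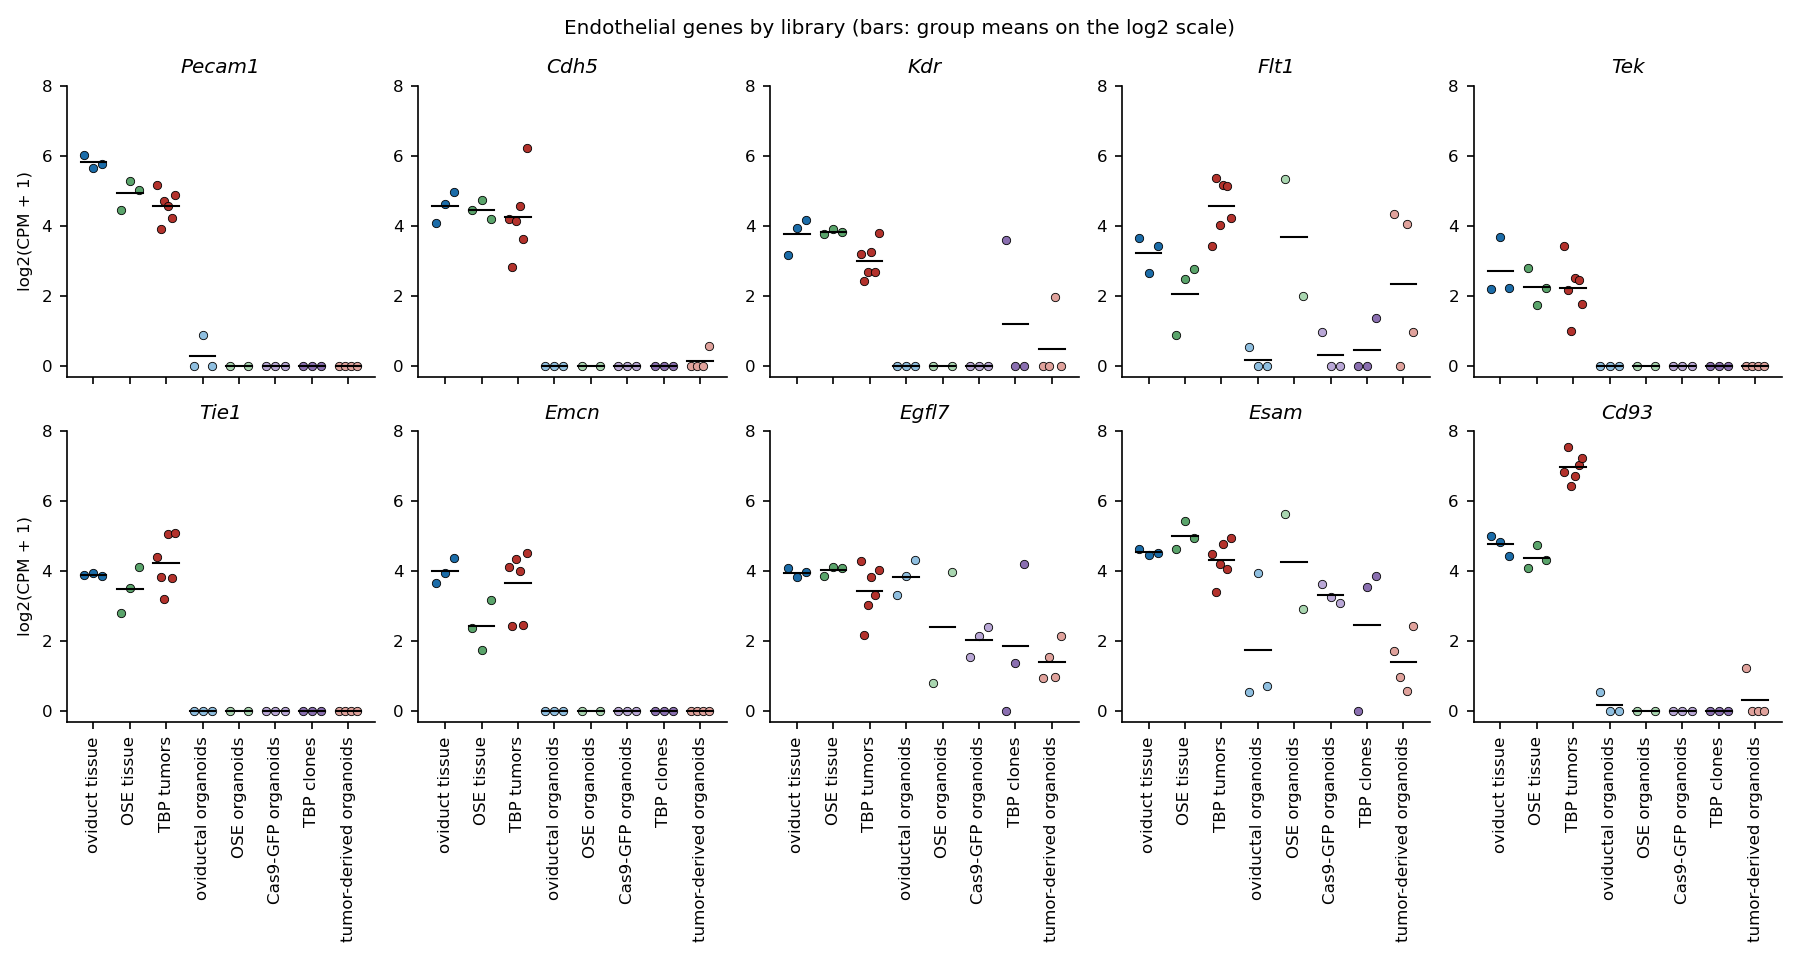
Level of each of the 10 endothelial genes as log2(CPM + 1) in every library of the 8 groups, with 1 point per library and a bar at the group mean on that scale. Cd93 is higher in each tumor (85.0 CPM or more) than in each tissue library (31.2 CPM or less), Tek, Tie1 and Emcn lie at 0 in all organoids, and the point for Kdr in a TBP clone is 1 read in the shallow clone 1.

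Pecam1 encodes CD31, an adhesion molecule of endothelial junctions that platelets and leukocytes also carry. It was at 64.6, 50.0 and 53.8 CPM in oviduct tissue 1 to 3 and at 21.2, 38.4 and 31.8 CPM in OSE tissue 1 to 3. In the tumors it ran from 14.0 CPM (tumor 2) over a median of 24.1 to 34.9 CPM (tumor 1). Every tumor lay below every oviduct library, while tumors and OSE tissue overlapped. The level fell 2.40-fold from oviduct tissue to tumors (56.1 ± 7.57 CPM, SD, n = 3, to 23.9 ± 7.57, n = 6), with a log2 difference of -1.26 (SE 0.27, edgeR adjusted p = 0.00405). Against OSE tissue the difference was -0.36 (SE 0.31, edgeR adjusted p = 0.354).

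Cdh5 encodes VE-cadherin, the cadherin of endothelial adherens junctions. Its level was 16.0, 23.7 and 30.5 CPM in oviduct tissue and 21.2, 25.6 and 17.5 CPM in OSE tissue. Tumors spread further, from 6.12 CPM (tumor 2) over a median of 17.0 to 74.3 CPM (tumor 6), and enclosed both tissues. The log2 difference was 0.05 (SE 0.68, edgeR adjusted p = 0.956) against oviduct and 0.19 (SE 0.65, edgeR adjusted p = 0.829) against OSE tissue. Without tumor 6, it was -0.68 and -0.54, again with no call. Tumor 6 was the library with the erythroid reads described above, and the part of blood content in its Cdh5 level was not tested.

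Esam, an adhesion molecule of endothelial tight junctions and platelets, was at 23.9, 21.1 and 22.0 CPM in oviduct tissue and at 23.7, 41.9 and 29.7 CPM in OSE tissue. The tumors ranged from 9.61 CPM (tumor 2) over a median of 19.3 to 30.1 CPM (tumor 6). All 3 groups overlapped. Log2 differences of the tumors were -0.20 (SE 0.33, edgeR adjusted p = 0.651) against oviduct and -0.68 (SE 0.33, edgeR adjusted p = 0.114) against OSE tissue. With library totals in place of TMM, the first turned to 0.12.

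Kdr encodes the main signalling receptor for VEGF. It was at 7.98, 14.5 and 17.1 CPM in oviduct tissue and at 12.7, 14.0 and 13.3 CPM in OSE tissue. In tumors it ran from 4.37 CPM (tumor 2) over a median of 6.84 to 12.9 CPM (tumor 6). Tumors 2, 3 and 5 lay below every tissue library, tumors 1, 4 and 6 within the oviduct range and tumor 6 also within the OSE range. Log2 differences were -0.84 (SE 0.41, edgeR adjusted p = 0.118) against oviduct and -0.86 (SE 0.35, edgeR adjusted p = 0.0640) against OSE tissue. Without tumor 6 both passed, at -1.06 (edgeR adjusted p = 0.0442) and -1.09 (edgeR adjusted p = 0.0158).

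Flt1, the other VEGF receptor gene, was at 11.6, 5.26 and 9.78 CPM in oviduct tissue and at 0.846, 4.66 and 5.84 CPM in OSE tissue, the lowest of these from 1 read. In tumors it ran from 9.83 CPM (tumor 1) over a median of 26.0 to 40.2 CPM (tumor 2). Tumor 1 alone lay within the oviduct range, and no tumor reached down to OSE tissue. The level was 2.67-fold higher in tumors than in oviduct tissue (25.4 ± 12.6 CPM, n = 6, against 8.88 ± 3.27, n = 3), a log2 difference of 1.42 (SE 0.51, edgeR adjusted p = 0.0427). It was 6.22-fold higher than in OSE tissue (3.78 ± 2.61 CPM, n = 3), a difference of 2.64 (SE 0.62, edgeR adjusted p = 0.00517). The call against oviduct tissue held in 8 of 15 alternative analyses. It was lost in a fit of all 27 libraries (adjusted p = 0.213), without any 1 of the oviduct libraries (0.0795, 0.147 and 0.101 without numbers 1, 2 and 3) and without tumor 2, 4 or 5 (0.0692, 0.0684 and 0.0714). Flt1 reads per Kdr read had a median of 0.571 for oviduct (0.364 to 1.45), 0.333 for OSE (0.0667 to 0.440) and 3.46 for the tumors (1.20 to 9.20).

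Tek, the angiopoietin receptor, had few reads, in all 17 for oviduct, 16 for OSE and 48 for the tumors. It was at 3.63, 11.8 and 3.67 CPM in oviduct tissue, at 5.92, 2.33 and 3.72 CPM in OSE tissue, and from 1.02 CPM (tumor 3) over a median of 4.01 to 9.83 CPM (tumor 1) in tumors. The groups overlapped, and at this depth no difference was detectable. With no filter on low counts, the differences were -0.50 (SE 0.68, edgeR adjusted p = 0.598) against oviduct and 0.08 (SE 0.66, edgeR adjusted p = 0.930) against OSE tissue.

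Tie1, its co-receptor, was at 13.8, 14.5 and 13.4 CPM in oviduct tissue and at 5.92, 10.5 and 16.5 CPM in OSE tissue. Tumors ran from 8.13 CPM (tumor 3) over a median of 16.7 to 33.1 CPM (tumor 6). All 3 groups overlapped, and the differences were 0.46 (SE 0.47, edgeR adjusted p = 0.444) and 0.78 (SE 0.51, edgeR adjusted p = 0.223) against oviduct and OSE tissue.

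Emcn encodes endomucin, a sialomucin of capillary and venous endothelium. Its level was 11.6, 14.5 and 19.6 CPM in oviduct tissue and 4.23, 2.33 and 7.96 CPM in OSE tissue. In tumors the range was 4.37 CPM (tumor 2) over a median of 15.8 to 22.1 CPM (tumor 6). Tumors enclosed the oviduct range and reached above OSE tissue. The difference from oviduct tissue was -0.17 (SE 0.54, edgeR adjusted p = 0.816), and 0.15 with library totals in place of TMM. The difference from OSE tissue was 1.38 (SE 0.63, edgeR adjusted p = 0.0913), and it passed without tumor 2 (1.53, adjusted p = 0.0498) or tumor 5 (1.57, adjusted p = 0.0330).

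Egfl7, a protein that endothelial cells secrete into the matrix, was at 16.0, 13.2 and 14.7 CPM in oviduct tissue and at 13.5, 16.3 and 15.9 CPM in OSE tissue. In tumors it ran from 3.50 CPM (tumor 2) over a median of 11.1 to 18.6 CPM (tumor 1). The tissues were close to each other and lay within the tumor range. Differences were -0.43 (SE 0.44, edgeR adjusted p = 0.446) and -0.48 (SE 0.43, edgeR adjusted p = 0.377) against oviduct and OSE tissue.

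Cd93 encodes a lectin-like transmembrane receptor of endothelial cells that myeloid cells also make. It was at 31.2, 27.6 and 20.8 CPM in oviduct tissue and at 16.1, 25.6 and 19.1 CPM in OSE tissue. Tumors ran from 85.0 CPM (tumor 3) over a median of 121 to 187 CPM (tumor 2). No tumor came near a tissue library. Cd93 was 4.63-fold higher in tumors than in oviduct tissue (128 ± 36.4 CPM, n = 6, against 26.5 ± 5.30, n = 3), with a log2 difference of 2.21 (SE 0.28, edgeR adjusted p = 0.000194). It was 6.22-fold higher than in OSE tissue (20.3 ± 4.87 CPM, n = 3), with a difference of 2.64 (SE 0.29, edgeR adjusted p = 5.98e-05). The calls of Cd93 against both tissues and of Pecam1 against oviduct tissue held in all 15 alternatives.

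**Figure D2:**
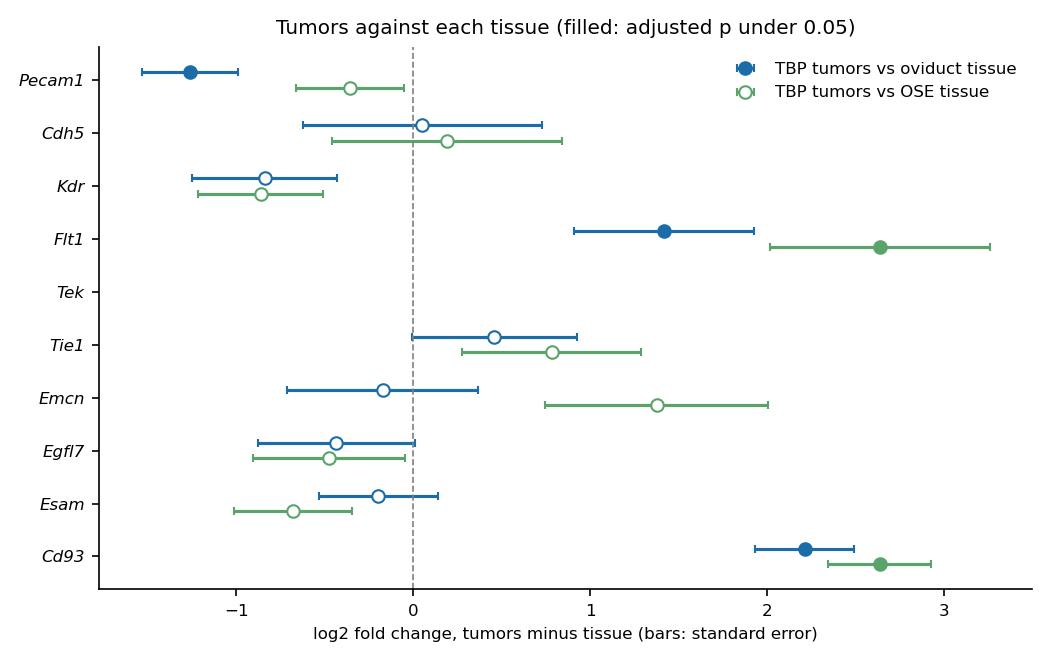
Log2 fold change of each endothelial gene in TBP tumors against oviduct tissue and against OSE tissue, with bars of 1 SE from edgeR and filled points where the adjusted p was under 0.05. Cd93 and Flt1 lie to the right in both comparisons, and Pecam1 is called lower against oviduct tissue at -1.26.

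Genes of other cell types moved with the same groups. Of 10 leukocyte markers, 9 were called higher in tumors than in oviduct tissue, where 23.7% of all genes tested were. Against OSE tissue, 10 of 10 of these markers were called higher, where 26.2% of all genes tested were. Their summed level was 183 to 218 CPM in oviduct tissue, 43.1 to 83.8 CPM in OSE tissue and 775 to 1772 CPM in tumors. The sum is not specific to leukocytes, since it was 28.1 to 421 CPM over all organoid libraries, most of it Cd14. Without Cd14 it was 0.954 to 44.9 CPM in organoids, 128 to 160 CPM in oviduct tissue, 39.6 to 75.3 CPM in OSE tissue and 521 to 1659 CPM in tumors. Cd68, a macrophage gene, was at 0 in every tissue library and at 13.6 to 32.2 CPM in the tumors. It passed the filter on low counts through the tumors alone, so that a call of lower was hardly possible for it. Fcgr3, an antibody receptor of myeloid cells, rose by 3.92 and 4.93 on the log2 scale (edgeR adjusted p = 5.86e-05 and 2.56e-05). Csf1r, the receptor for the macrophage growth factor, was at 97.6 to 469 CPM in tumors and at 6.37 to 23.7 CPM in the tissues. It was also read in every organoid library, with 16.0 to 29.4 CPM in Cas9-GFP oviductal organoids. Levels as low as those of the tissues are thus not specific to macrophages. Among the tumors, tumor 2 had the highest leukocyte sum, Cd93 and Flt1. Tumor 1, with the second highest sum (1593 CPM, of which 465 was Cd14), had the lowest Flt1. Tumor 4, with the lowest sum (775 CPM, of which 80.4 was Cd14), had the second highest Flt1. The order of the sums depends on Cd14, which made up 581 of 1102 CPM in tumor 3. That tumor had the lowest Csf1r (97.6 CPM) and the lowest Cd93 (85.0 CPM). Platelet markers summed to 168 to 201, 46.6 to 102 and 90.4 to 246 CPM in oviduct tissue, OSE tissue and tumors. This sum is not specific to platelets either. It was 57.2 to 398 CPM in tumor-derived organoids and 7.63 to 144 CPM in OSE organoids. Of the 4 platelet markers tested, 2 rose and 2 fell against oviduct tissue, beside 23.7% and 22.4% of all genes. Against OSE tissue 2 of these markers rose and 1 fell, beside 26.2% and 24.3% of all genes. The part of leukocytes in the levels of Cd93, Pecam1 and Flt1 was not tested.

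**Figure D3:**
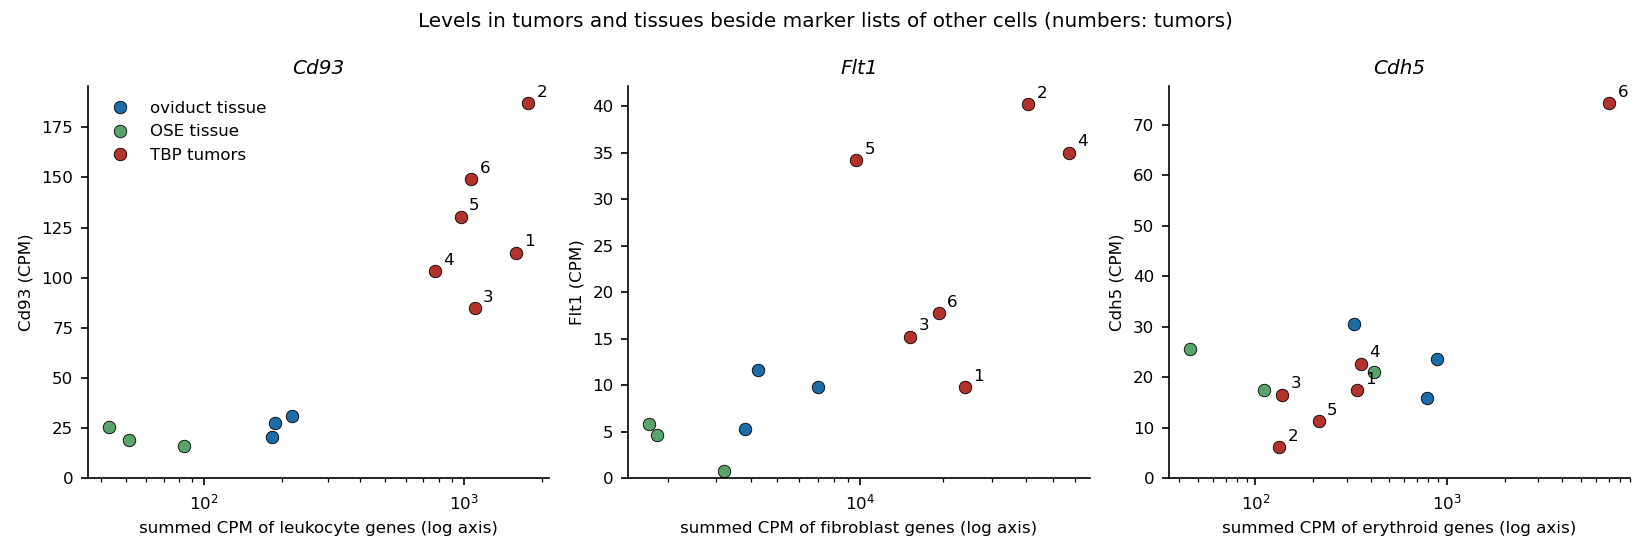
CPM of Cd93, Flt1 and Cdh5 in the 12 tumor and tissue libraries against the summed CPM of leukocyte, fibroblast and erythroid genes (log x axes), with 1 point per library, a colour per group and the number of each tumor. Tumors lie at 775 CPM or more of the leukocyte sum and tissues at 218 CPM or less, Flt1 is highest in tumor 2, and tumor 6 lies alone at 7033 CPM of the erythroid sum and 74.3 CPM of Cdh5.

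The reads were also shared out differently among the 10 genes. Of their summed CPM, Cd93 took a median of 14.1% in oviduct tissue (10.1% to 15.6%), 12.8% in OSE tissue (11.8% to 14.1%) and 42.1% in tumors (36.3% to 65.4%). The share of Pecam1 had a median of 26.2% in oviduct tissue (25.5% to 32.2%), 19.7% in OSE tissue (16.9% to 21.2%) and 7.74% in tumors (4.89% to 13.0%). Since a larger Cd93 part makes every other part smaller, the shares were also taken without Cd93. The medians of Pecam1 were then 29.7%, 22.4% and 14.8%, in the same order. Those of Kdr went from 7.38%, 8.22% and 2.85% to 8.59%, 9.33% and 4.73%, and those of Flt1 from 4.76%, 2.56% and 9.97% to 5.30%, 2.99% and 16.3%. For Esam, 10.7%, 18.9% and 7.85% became 12.5%, 21.7% and 13.6%, so that the tumor median was below that of oviduct tissue with Cd93 in the sum and above it without, where the ranges overlapped. Cd93 reads per Pecam1 read were 0.386 to 0.553 in oviduct tissue, 0.600 to 0.760 in OSE tissue and 3.22 to 13.4 in tumors. Tie1 reads per Tek read overlapped between the groups, at 1.22 to 3.80, 1 to 4.50 and 2.06 to 13.5. So did Cdh5 reads per Pecam1 read, at 0.247 to 0.568, 0.550 to 1 and 0.438 to 2.57 (0.438 to 1 without tumor 6).

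**Figure D4:**
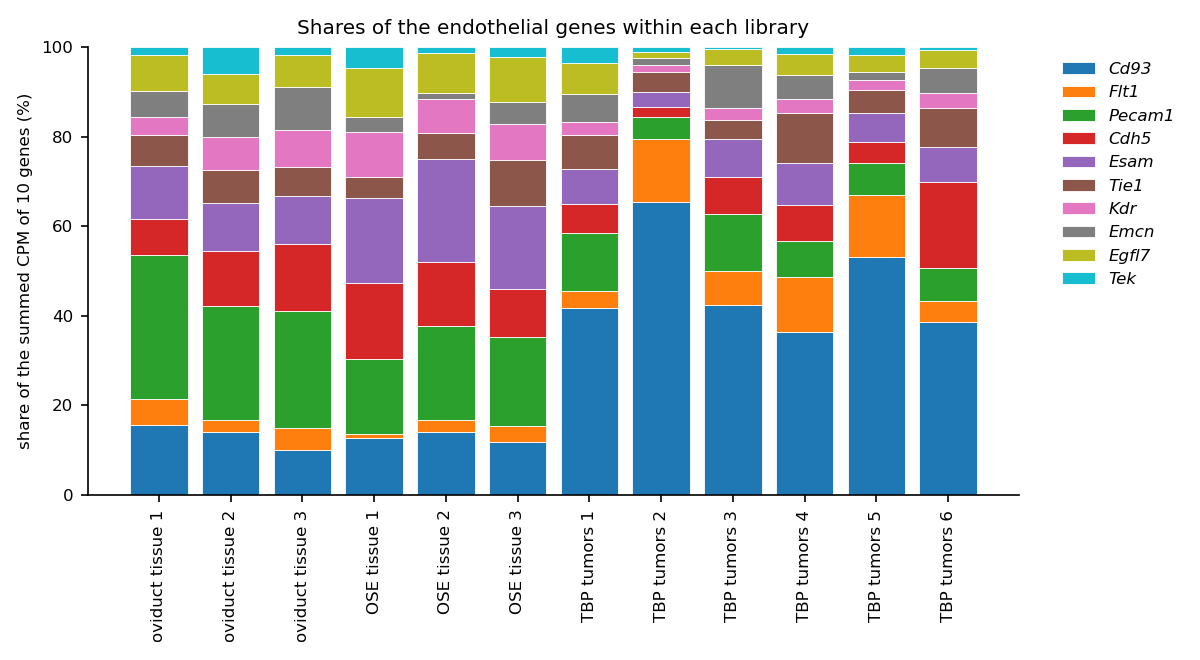
Share of each gene in the summed CPM of the 10 endothelial genes, as a stacked bar to 100% for each of the 12 tumor and tissue libraries. The Cd93 part takes at least 36.3% of every tumor bar and at most 15.6% of every tissue bar, while the Pecam1 part is larger in the tissues.

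The tumors differed among themselves. Cdh5 spread 12.1-fold from the lowest to the highest tumor, but 3.71-fold without tumor 6. Tek spread 9.67-fold, Egfl7 5.31-fold and Emcn 5.06-fold, while Pecam1 spread 2.50-fold and Cd93 2.20-fold. Tumor 2 was the lowest in 6 of the 10 genes and the highest in 2, Flt1 and Cd93. Tumor 6 was the highest in 5, and tumor 1 in 3. The summed level of the 10 genes was 200.5 CPM in tumor 3 to 386 CPM in tumor 6 (286 CPM at most in the others), beside 196 to 205 CPM in oviduct tissue and 125 to 182 CPM in OSE tissue. Without Cd93 the sums were 98.8 to 237 CPM in tumors, 168 to 185 CPM in oviduct and 109 to 156 CPM in OSE tissue, and 4 of the 6 tumors then lay below every oviduct library.

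The 2 tissues were compared directly. Pecam1 was 1.91-fold higher in oviduct than in OSE tissue, with a log2 difference of 0.94 (SE 0.24, edgeR adjusted p = 0.00405) and no overlap. It was the only 1 of 7 tested endothelial genes called higher, where 26.9% of all 8787 genes were, and none was called lower, where 24.3% were. Among the other 6, differences ran from -0.44 for Esam (SE 0.27, edgeR adjusted p = 0.192) to 0.47 for Cd93 (SE 0.28, edgeR adjusted p = 0.174). Esam was called lower in 1 of 13 alternatives, at -0.81 (edgeR adjusted p = 0.0168). Flt1, Tek and Emcn did not have enough reads. Emcn, with groups that did not overlap, was higher by 1.39 with no filter on low counts (SE 0.44, edgeR adjusted p = 0.00541), and Flt1 by 1.16 (SE 0.53, edgeR adjusted p = 0.0740). Emcn also entered and passed the test without oviduct tissue 1 or without any 1 of the OSE libraries (1.20 to 2.05), which brings the calls to 2. The Pecam1 call was lost in the fit of all 27 libraries (adjusted p = 0.141). Library totals without TMM moved the median over all genes from 0.00 to -0.37 and the split of calls from 2362 higher and 2133 lower to 1634 and 3510.

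Organoids held almost no reads of most endothelial genes. Over the 15 organoid libraries, Tek, Tie1 and Emcn had 0 reads, Pecam1 and Cdh5 had 1 read each, Cd93 had 4 in 2 libraries and Kdr had 7 in 2 libraries. The single Kdr read of TBP clone 1 came to 11.2 CPM in that shallow library. Flt1 was read in 8 libraries (143 reads), Egfl7 in 14 (196) and Esam in 14 (215). Leukocyte genes in the organoids were mixed. Tyrobp and Itgam were at 0 in all 15 and Ptprc reached 1.37 CPM, while Cd14 was at 23.3 to 400.3 CPM. Csf1r was at 0.954 to 33.5 CPM (216 reads), with the highest value in the shallow TBP clone 1.

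Oviduct tissue was compared with oviductal organoids first. Of 8 tested genes, 7 were called higher in the tissue, against 24.2% of all 9477 genes. Genes with 0 or 1 organoid read passed the filter on low counts through the tissue libraries alone. For them a call other than higher was hardly possible, so that the count is no support beyond these reads. Tie1 was at least 7.02-fold higher (edgeR adjusted p = 5.78e-05), Cdh5 at least 11.8-fold, Kdr at least 6.66-fold and Emcn at least 7.69-fold, each against organoid libraries at 0 with 3 reads per library as the limit. Pecam1, with 1 organoid read, had a ratio of 278 (exact 95% counting interval 49.2 to 11035), and Cd93, also with 1, a ratio of 132 (23.0 to 5261). These limits and intervals, and those below, cover counting error only and take every read as independent. Amplified copies were counted, so that the intervals may be too narrow. Tek, at least 3.22-fold, and Flt1, with a ratio of 45.5 (7.52 to 1860), were above every organoid library but not tested. Esam was 5.12-fold higher in the tissue, with a log2 difference of 2.36 (SE 0.78, edgeR adjusted p = 0.0283). Its organoid levels were 0.477, 14.4 and 0.656 CPM. The call was lost without any 1 of the tissue libraries (edgeR adjusted p = 0.0871, 0.0655 and 0.0636 without numbers 1, 2 and 3) or without oviductal organoids 3 (0.0927). Egfl7, at 9.06, 13.5 and 19.0 CPM in the organoids, overlapped the tissue, with a difference of 0.12 (SE 0.38, edgeR adjusted p = 0.833).

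OSE tissue against OSE organoids gave 5 of 8 tested genes called higher, against 18.6% of all 10232. The 5 called genes had no OSE organoid read and passed the filter through the tissue alone, so that this count is no further support. With all OSE organoid reads at 0, Pecam1 was at least 16.0-fold, Cdh5 11.3-fold, Cd93 10.6-fold, Kdr 6.99-fold and Tie1 5.75-fold higher in the tissue. The other genes behaved differently. Flt1 was at 39.7 CPM in OSE organoids 1 (52 reads) and 3.04 CPM in OSE organoids 2 (6 reads), with a log2 difference of -2.38 for tissue minus organoids (SE 1.06, edgeR adjusted p = 0.130). Egfl7 was at 0.763 and 14.7 CPM and Esam at 48.1 and 6.59 CPM, with differences of 0.84 (SE 0.82, edgeR adjusted p = 0.466) and 0.24 (SE 0.72, edgeR adjusted p = 0.825). The 2 lines held these 3 genes at levels that differed several-fold. Without OSE organoids 2 the number of calls was 8, among them Egfl7 with a difference of 4.15 and Flt1 with -3.28, and without OSE organoids 1 Esam passed with 2.16. In these fits the lone line is assumed to vary like the other group. Library totals without TMM gave 2785 genes higher and 945 lower here, beside 1902 and 1485, with the median over all genes moving from 0.06 to 0.50.

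The change from tissue to organoids was set against itself between oviduct and OSE by an interaction term in 1 fit of these 11 libraries. Flt1 differed, by 7.25 on the log2 scale (SE 1.57, edgeR adjusted p = 0.0109), where 11.7% of all 11458 genes did. Its organoid level was 0 to 0.477 CPM in the oviductal lines, from 1 read, and 3.04 and 39.7 CPM in the OSE lines, so that the size is imprecise. The call held with each of the 11 libraries left out, at 4.57 (without OSE organoids 1) to 8.86 (without oviductal organoids 1). Esam, Egfl7, Cd93 and Pecam1 did not pass (adjusted p of 0.341 to 0.670), although Esam did without oviductal organoids 2 (4.80) or OSE organoids 2 (2.91) and Egfl7 without OSE organoids 2 (-4.14), and for the genes at 0 in organoids of both kinds the term could not be estimated with any precision.

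Tumors against tumor-derived organoids gave 8 of 9 tested genes called higher, against 15.1% of all 10605. Genes with almost no organoid reads again passed the filter through the tumors alone, so that for them the count is no further support. Pecam1 was at least 16.8-fold, Tie1 14.0-fold and Emcn 9.56-fold higher in the tumors, with organoids at 0, and Tek, not tested, at least 3.04-fold. Cdh5, with 1 organoid read, had a ratio of 193 (34.3 to 7641), and Cd93, with 3 reads in T1-mes, a ratio of 342 (117 to 1661). Kdr was 9.70-fold higher, with a log2 difference of 3.28 (SE 0.90, edgeR adjusted p = 0.0208), and had its 6 organoid reads in T3-mes (2.91 CPM). That call was lost without T1-mes (adjusted p = 0.0530), T2-epi (0.0540) or T4-epi (0.0554). Egfl7 differed by 2.60 (SE 0.56, edgeR adjusted p = 0.00670) and Esam by 3.28 (SE 0.55, edgeR adjusted p = 0.00176).

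Flt1 did not pass, with a difference of 1.52 (SE 0.88, edgeR adjusted p = 0.227). It was at 19.1 CPM in T1-mes and 15.5 CPM in T3-mes, within the tumor range, while T2-epi had no read and T4-epi was at 0.970 CPM. The mes lines also held the fibroblast markers, with summed levels of 3120 and 7532 CPM where T2-epi and T4-epi had 31.3 and 101 CPM. The tumors themselves held 9650 to 56973 CPM of these markers, beside 3807 to 7022 CPM in oviduct and 1715 to 3204 CPM in OSE tissue. Of the 6 fibroblast genes, 3 were called higher in tumors than in oviduct tissue and 5 higher than in OSE tissue. Over all genes tested, 23.7% and 26.2% were called higher in these comparisons. The part of fibroblast-like cells in the Flt1 level of tumors was not tested. In TBP clones and Cas9-GFP organoids, Flt1 reached 1.60 CPM at most (7 reads, clone 3).

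Other genes of vessel biology were counted by list in the tumors. Over all genes, 23.7% were called higher and 22.4% lower against oviduct tissue, and 26.2% and 24.3% against OSE tissue. The counts of each list stand beside these shares, and no list was tested as a set. Of 25 further endothelial markers, 21 were tested against oviduct tissue, with 2 called higher and 7 lower (median -0.82), and 20 against OSE tissue, with 6 higher and 3 lower (median 0.67). The medians over all genes were 0.08 and 0.07. Gpr116, an adhesion receptor of lung and other endothelium, fell against both, from 59.2 to 114 CPM in oviduct and 34.9 to 37.7 CPM in OSE tissue to 6.99 to 30.7 CPM in tumors, by 2.29 (edgeR adjusted p = 0.00138) and 1.14 (adjusted p = 0.0303) on the log2 scale. Cldn5, the claudin of endothelial tight junctions, fell by 2.28 against oviduct tissue (SE 0.50, edgeR adjusted p = 0.00443), from 7.33 to 9.43 CPM to 3.07 CPM or less. Calcrl, the receptor for adrenomedullin, fell by 2.13 (SE 0.38, edgeR adjusted p = 0.00136). Against OSE tissue its difference was -0.75 (adjusted p = 0.162). S1pr1, a sphingosine phosphate receptor that leukocytes share, rose by 1.01 and 1.35 (edgeR adjusted p = 0.0391 and 0.0103), and Ecscr, an endothelial surface protein, by 2.36 and 4.24 (adjusted p = 0.0159 and 0.00124).

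Of the VEGF ligands and co-receptors, 7 of 8 were tested, with 2 higher than in oviduct and 3 higher than in OSE tissue and none lower (medians 0.89 and 1.89). Nrp1, a VEGF co-receptor also on many other cells, was at 42.1 to 68.4 CPM in oviduct tissue, 18.6 to 24.5 CPM in OSE tissue and 77.2 to 209 CPM in tumors. It rose by 1.30 (SE 0.35, edgeR adjusted p = 0.0124) and 2.65 (SE 0.37, edgeR adjusted p = 0.000236). Nrp2, its relative on veins and lymphatics, rose from 17.1 to 34.8 and 23.9 to 27.9 CPM to 66.1 to 227 CPM, by 2.36 (SE 0.43, edgeR adjusted p = 0.00161) and 2.45 (SE 0.40, edgeR adjusted p = 0.000608).

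Of the 5 genes of the angiopoietin axis, 2 rose against oviduct tissue (median 0.99), and 2 rose and 1 fell against OSE tissue (median 0.14). Angpt1, the main activating ligand of the Tek product, rose by 2.82 (SE 0.70, edgeR adjusted p = 0.00851) and 1.45 (SE 0.46, edgeR adjusted p = 0.0226), to 4.73 to 14.9 CPM in tumors from 0 to 2.44 CPM in oviduct and 2.33 to 3.38 CPM in OSE tissue. In oviduct tissue 3 reads come to 2.18 to 3.95 CPM, so that the size of the rise against oviduct tissue rests on very few reads and is imprecise. Svep1, a large matrix protein, rose by 1.74 (SE 0.58, edgeR adjusted p = 0.0323) and 5.91 (SE 0.92, edgeR adjusted p = 0.000459).

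Among 11 transcription factors used by endothelial cells, 8 were tested, with 3 higher and 2 lower against oviduct tissue (median 0.75) and 3 higher and 1 lower against OSE tissue (median 1.60). The ETS family members Ets1 and Fli1, which blood cells also use, rose against both: Ets1 by 2.49 and 1.43 (edgeR adjusted p = 0.000600 and 0.00735) and Fli1 by 2.42 and 4.00 (adjusted p = 0.0166 and 0.00101). Mef2c rose by 1.85 against oviduct tissue (SE 0.56, edgeR adjusted p = 0.0205). Sox17 and Gata2 fell against oviduct tissue, by 3.50 and 2.57 (edgeR adjusted p = 0.0149 and 0.00170). Oviduct tissue held 704 to 818 CPM of Sox17 and 88.2 to 117 CPM of Gata2, and both genes are also known in the epithelium or stroma of the reproductive tract.

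Of 15 Notch, arterial and venous genes, 9 were tested, with 1 higher and 2 lower against oviduct tissue (median 0.33) and 4 higher and 1 lower against OSE tissue (median 0.23). Vcam1, an adhesion molecule of inflamed endothelium that fibroblasts and macrophages also carry, rose by 6.84 (SE 0.79, edgeR adjusted p = 0.000112) and 4.62 (SE 0.56, edgeR adjusted p = 0.000106), to 92.1 to 293 CPM in tumors from 10.2 CPM or less in the tissues. Hey1, a Notch target, fell by 3.22 against oviduct tissue (SE 0.39, edgeR adjusted p = 0.000144), as did Nr2f2, a venous regulator also known in stroma, by 1.63 (SE 0.48, edgeR adjusted p = 0.0185).

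Of 10 tip cell and basement membrane genes, 8 were tested, with 3 higher and 1 lower against oviduct tissue (median 0.27) and 2 higher and 2 lower against OSE tissue (median 0.66). Apln, a peptide of sprouting tip cells, rose by 1.70 and 2.02 (edgeR adjusted p = 0.0497 and 0.0212), to 6.01 to 22.0 CPM in tumors from 4.66 CPM or less in the tissues. Sparc, a matrix protein of fibroblasts and vessels, rose by 1.52 and 1.55 (edgeR adjusted p = 0.0102 and 0.00833). Col4a2, a chain of basement membrane collagen, fell by 1.21 (SE 0.25, edgeR adjusted p = 0.00350) and 1.94 (SE 0.26, edgeR adjusted p = 0.000193), from 205 to 292 CPM in oviduct and 317 to 509 CPM in OSE tissue to 55.9 to 136 CPM in tumors. Lamb1 rose by 0.73 against oviduct tissue (SE 0.20, edgeR adjusted p = 0.0141).

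Mural cells, the pericytes and smooth muscle cells that wrap vessels, were followed by 12 markers. Against oviduct tissue, 2 of 11 tested rose and 5 fell, and against OSE tissue 4 of 10 rose and 2 fell. Kcnj8, a potassium channel gene of pericytes, fell from 20.3 to 23.2 CPM in oviduct tissue to 2.03 CPM or less in tumors (edgeR adjusted p = 6.83e-05). Rgs5, another pericyte gene, fell against both, with log2 differences of -4.20 (SE 0.49, edgeR adjusted p = 0.000127) and -2.25 (SE 0.54, edgeR adjusted p = 0.00572), to 3.07 CPM or less in tumors from 17.1 to 44.7 CPM in oviduct and 5.82 to 13.8 CPM in OSE tissue. Pdgfrb and Notch3, which pericytes share with fibroblasts, rose against oviduct tissue by 2.23 and 2.01 (edgeR adjusted p = 0.0347 and 0.0154). Myh11, of the muscle coat, was at 1200 to 1896 CPM in oviduct tissue and at 13.1 CPM or less in tumors. Of the 2 lymphatic genes tested, none rose and 1 fell against oviduct tissue, and 1 rose and 1 fell against OSE tissue. Lyve1 was at 8.47 to 33.3 CPM in tumors, 12.2 to 15.8 CPM in oviduct and 1.06 to 3.49 CPM in OSE tissue. Pdpn, which fibroblasts and epithelia also make, fell by 2.37 against oviduct tissue (SE 0.34, edgeR adjusted p = 0.000372), and Prox1, the lymphatic regulator, was at 0 in oviduct tissue and tumors.

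**Figure D5:**
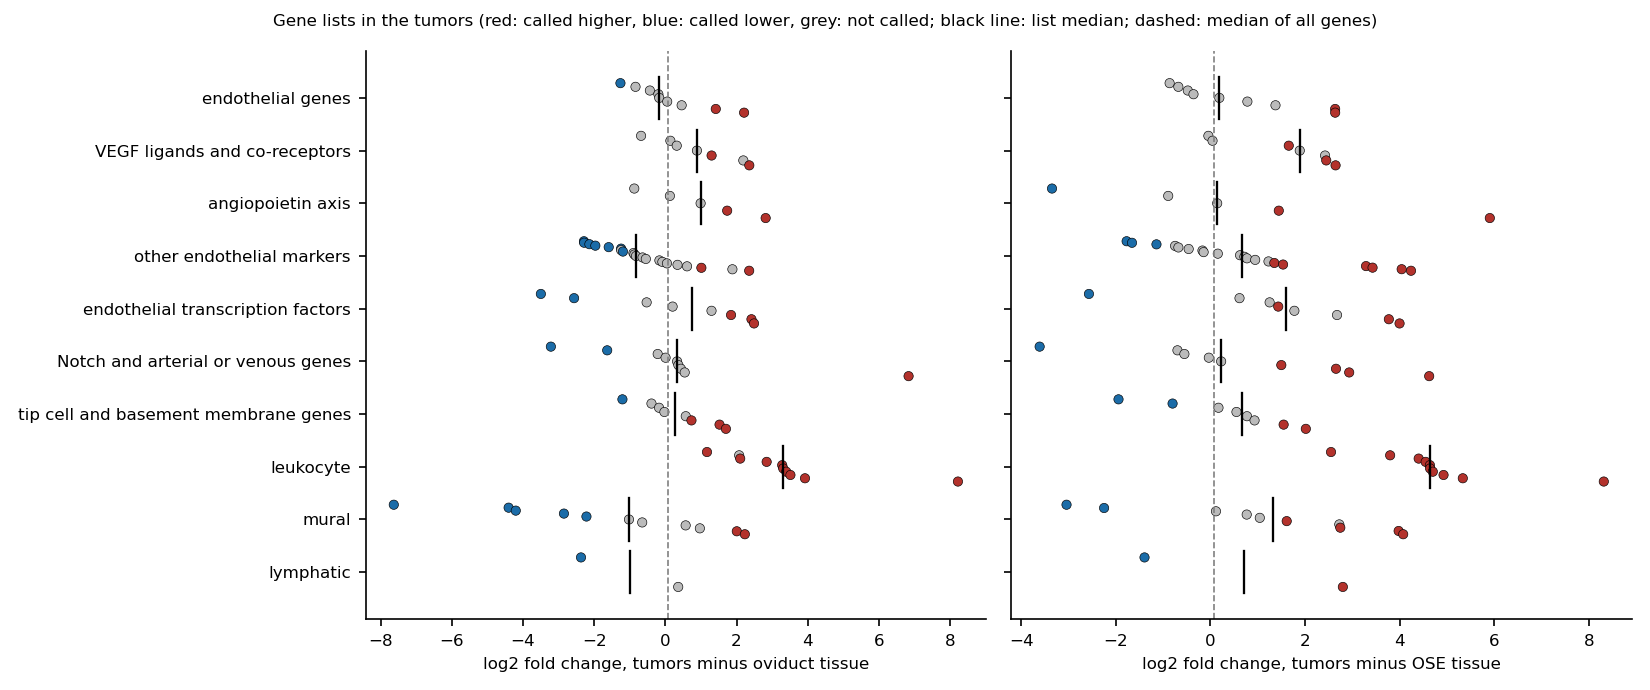
Log2 fold change in TBP tumors of every tested gene of 10 lists against oviduct tissue (left) and OSE tissue (right), red where called higher, blue where called lower and grey where not called by edgeR, with a black line at the list median and a dashed line at the median of all genes. Leukocyte genes lie to the right in both panels while most vessel lists lie on both sides of 0, and the position of Cd68, at 0 in the tissues, depends on the prior count.

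The 10 genes whose log2 CPM followed the mean of the endothelial genes most closely over the 12 tumor and tissue libraries, among 10919 others, were Mmrn2 (Pearson r = 0.857), Gnb2 (0.843), Lama4 (0.802), Fam105b (0.802), Fam198b (0.799), Ndufa4 (0.787), Usp4 (0.778), Rps27l (0.774), Gng11 (0.768) and Vma21 (0.764). Mmrn2 encodes an endothelial matrix protein that binds the product of Cd93, and Lama4 a laminin chain of vessel basement membranes. Both were already on the vessel lists counted above, and the other genes of this ranking were on none of them. The libraries share group, depth and scaling, and the values are a description over 12 points.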

How the data were processed

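RNA of tumors, tissues and organoids was prepared by CEL-Seq2, a method that reads the 3′ end of transcripts, and tissue and tumor RNA was extracted with Trizol, organoid RNA with a column kit, so that extraction differs between these groups. The authors aligned reads to GRCm38 with BWA (version not given in the sources used here), kept uniquely mapped reads in the direction of transcription, and deposited raw read counts per gene that were not corrected by molecular identifiers, so that amplified copies count more than once. The submitters' processing notes also name DESeq2 1.18.0. The 1 spike-in entry (1 count) was left out, which leaves 18305 genes.

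Groups were taken from the labels. The 6 comparisons of groups used edgeR 4.0.16 in R 4.3.3 (two-sided quasi-likelihood test, TMM, filterByExpr, Benjamini-Hochberg over all genes tested, 0.05), fitted on the libraries of the 2 groups, and an interaction term was fitted for tissue against organoids. A group at 0 was set at 3 counts per library. Alternatives were DESeq2 1.42.0, RLE size factors, no filter, fits of all 27 and of 12 libraries, each library left out, a replicate block and, added after seeing the data, library totals without TMM. The scripts were tested on simulated data. The 10 genes, the lists and the tests were chosen with earlier results of these data known. From each list, up to 3 genes per direction with an adjusted p under 0.05 against oviduct tissue, by size of change, could be named, and not all are, together with the 10 genes with the highest correlation among those with a mean of at least 5 CPM. Other genes of the marker lists (Ptprc, Itgam, Tyrobp, Cd14, Prox1, Lyve1) were named after their values were seen. Older symbols were matched through RefSeq synonyms. 5 genes of the lists are not analysed here. One OSE organoid line that the study left out was not analysed here. The targeted genes are not reported here.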

Additional observations from a re-analysis of the deposited data

Results flagged for a closer look

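In 47 groups of 4 to 10 libraries (1 gene or list in 1 group of samples), 7 values stood far from the others of their group by Dixon's criterion. Chance meets it in about 1 in 20 groups, but that rate does not hold for 3 of the 7, where all other libraries are at 0 and a single read is enough. In tumor 6, Cdh5 was at 74.3 CPM, with the other tumors at 6.12 to 22.7, and erythroid genes summed to 7033 CPM, with the others at 133 to 357. The other 5 values were in tumor-derived organoids. Those 3 rest on 6 reads or fewer: Cdh5 at 0.485 CPM in T4-epi, Kdr at 2.91 CPM in T3-mes and Cd93 at 1.37 CPM in T1-mes, with the other 3 lines at 0 each time. T3-mes also had the highest sums of lymphatic genes, 8.25 CPM against 0.475 to 0.911, and of granulosa and steroidogenic genes, 1561 CPM against 141 to 184. Of the lymphatic sum, 7.28 CPM was Pdpn, which fibroblasts also make, and Prox1 and Mmrn1 had no read. Cyp11a1, Hsd3b1, Fshr, Cyp19a1 and Lhcgr of the other list had no read in any tumor-derived organoid. Neither sum is specific to the cells its list is named for.

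The difference between tissue and organoids was not the same in oviduct and OSE for Flt1, by 7.25 on the log2 scale (edgeR interaction, adjusted p = 0.0109), with 52 of the 58 OSE organoid reads in 1 of the 2 lines. In TBP clones, which entered no comparison, Flt1 was at 1.60 CPM in clone 3 (7 reads, lower exact 95% limit 0.642 CPM), above the highest C57BL/6 oviductal organoid library at 0.477 CPM but not clearly above Cas9-GFP oviductal organoids 1, at 0.955 CPM (1 read).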

How the results depend on the processing

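Of 26 calls of single endothelial genes, 333 alternative values were obtained, of which 15 missed the threshold and none changed direction. Between oviduct and OSE tissue, the 1 call became 2 with DESeq2, 2 with no filter, 2 with library totals without TMM, 0 in the fit of all 27 libraries, and 1 to 2 when each library was left out. That fit gave 1565 and 1119 genes higher and lower, beside 2362 and 2133. The added call was not always Emcn higher in oviduct tissue. Esam was called lower there in 1 of 13 alternatives (-0.81, edgeR adjusted p = 0.0168). Between OSE tissue and OSE organoids, leaving out libraries gave 4 to 8 calls, the highest without OSE organoids 2. The share of Pecam1 went from 19.7% to 22.4% in OSE tissue and from 7.74% to 14.8% in tumors with Cd93 left out. Changes of direction were found only among values with no call. With library totals without TMM these were Emcn (0.15) and Esam (0.12) in tumors against oviduct tissue, and Cdh5 (-0.23) and Tie1 (-0.086) between the tissues, and in the fit of all 27 libraries Kdr between the tissues (0.0089). Leaving out libraries gave -0.68 to 0.29 for Cdh5 and -0.37 to 0.045 for Emcn in tumors against oviduct tissue, and -0.54 to 0.36 for Cdh5 against OSE tissue. Between the tissues it gave -0.10 to 0.44 for Cdh5, -0.31 to 0.32 for Kdr, -0.030 to 0.77 for Tie1 and -0.12 to 0.044 for Egfl7. Against organoids it gave -0.18 to 0.42 for Egfl7 in oviduct, and -0.013 to 4.15 for Egfl7 and -0.64 to 2.16 for Esam in OSE. The cause was not tested. Depth limits Tek, Emcn and Flt1 most, with 16 to 48 reads of Tek per group of tumors or tissues.

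Oviduct and OSE tissue share replicate numbers. Same-numbered libraries deviated together only weakly (correlations of 0.043, 0.089 and 0.053, others -0.066 to 0.008), each being the highest for its library, which is under the 0.1 needed to take the numbers as pairs. With a replicate block, 1 endothelial gene was called, as without it, and 2396 and 2193 genes in all were higher and lower.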
